A study of Mus musculus with 2 samples.

Results

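Among the dendritic cells (DCs) of a CITE-seq experiment, in which mRNA and antibody-derived tags are counted in the same droplet, a minority carried mRNA of the T cell receptor complex. The members described here were the droplets that held at least 1 unique molecular identifier (UMI, 1 counted mRNA molecule) of *Cd3e*, the epsilon chain of CD3, or of *Trac*, the constant region of the T cell receptor alpha chain, and that the authors had put in a DC class by their antibody tags. There were 504 of them among 10348 classified cells and 11067 cells in all: 182 of 3042 classified cells in the naive library and 322 of 7306 in the papain library. They were compared, class by class and within each library, with the classified cells that held neither transcript, 2860 naive and 6984 papain cells.

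DCs carry antigen from the tissue to the lymph node and show it to T cells on MHC molecules, MHC class II to CD4+ T cells and MHC class I to CD8+ T cells. In the node the T cells crawl over the DCs and the cells bind each other tightly, so that a suspension made from a node can hold DC and T cell pairs that pass through a sorter and enter a droplet together. A T cell transcript in a droplet called a DC can therefore come from a bound T cell, from a T cell that fell into the same droplet by accident, from a T cell alone that met the gate and the antibody class, or from free RNA in the suspension.

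Both libraries came from wild-type B6 mice. Live MHCIIhi CD11c+ B220- cells were sorted either from unimmunized (naive) mice or from the draining popliteal nodes of mice given ovalbumin (OVA) with the protease allergen papain in both rear footpads 1 day before. The labels describe both node samples as skin-draining, and the study's methods describe pooled skin-draining nodes for the naive control, so that node site and immunization cannot be told apart. There was 1 library per condition and no cell carries a mark of its mouse, so no comparison here has a replicate check. Every interval given is a 95% interval that covers counting error only (exact Clopper-Pearson for shares, Poisson-based for ratios of levels), and no p-value is given. The antibody classes were Langerhans cells (LC, the DCs of the epidermis), cDC1 (the conventional DCs that express XCR1 and cross-present to CD8+ T cells), and 3 classes of cDC2 (the conventional DCs that express CD172a) with low, intermediate or high CD301b, written CD301blo, CD301bint and CD301bhi. The libraries shared 2 cell barcodes, neither of them in a member. Median depth was 13764 UMIs per cell in the naive library and 14738 in the papain one.

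The surface proteins that matter for the members were read through 15-base oligonucleotide tags on the antibodies. They are shown in lower case because 4 of them carry the protein results below, and because the last one belongs to 2 antibodies and so could not be used.
CD8a: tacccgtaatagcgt
CD103: ttcattagcccgctg
XCR1: tccattacccacgtt
CD172a: gattcccttgtagca
CD11b and CD24: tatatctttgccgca
CD8a is the coreceptor of CD8+ T cells and is also found on some DCs. CD103 is an integrin of tissue-resident T cells and of migratory cDC1s. XCR1 marks cDC1s, and CD172a (SIRPα) marks cDC2s. Because CD11b and CD24 were listed with the same tag sequence, neither protein is reported.

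Members made up 13.5% of the naive cDC1 class (78 of 578 cells, 10.8 to 16.6%), which was the highest share of any class in either library. In the other naive classes the share was 5.78% in CD301blo cDC2s (38 of 658), 4.70% in CD301bint cDC2s (31 of 659), 3.18% in LCs (14 of 440) and 2.97% in CD301bhi cDC2s (21 of 707, 1.85 to 4.50%). In the papain library the LCs stood highest at 7.26% (64 of 881, 5.64 to 9.18%), and the remaining classes lay close together, at 4.68% in cDC1s (11 of 235), 4.11% in CD301bhi (119 of 2893), 3.95% in CD301blo (58 of 1470) and 3.83% in CD301bint cDC2s (70 of 1827). Both are T cell genes, and whether any DC class makes some of these transcripts itself was not tested. The lowest class of each library, at 2.97% and 3.83%, was picked from these same shares and sets no background level. The intervals of naive CD301blo (4.12 to 7.84%) and CD301bint cDC2s (3.22 to 6.61%) overlapped that of naive CD301bhi cDC2s. The interval of papain LCs overlapped that of papain cDC1s (2.36 to 8.22%). The papain LCs were also the most deeply sequenced class of their library, with a median of 18171 UMIs in the cells without the label against 14708 in the cDC2s. When every cell was thinned to 8392 UMIs, the share was 3.76% in papain LCs against 2.39% in papain cDC2s, and 11.4% in naive cDC1s against 3.09% in naive cDC2s.

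**Figure D1:**
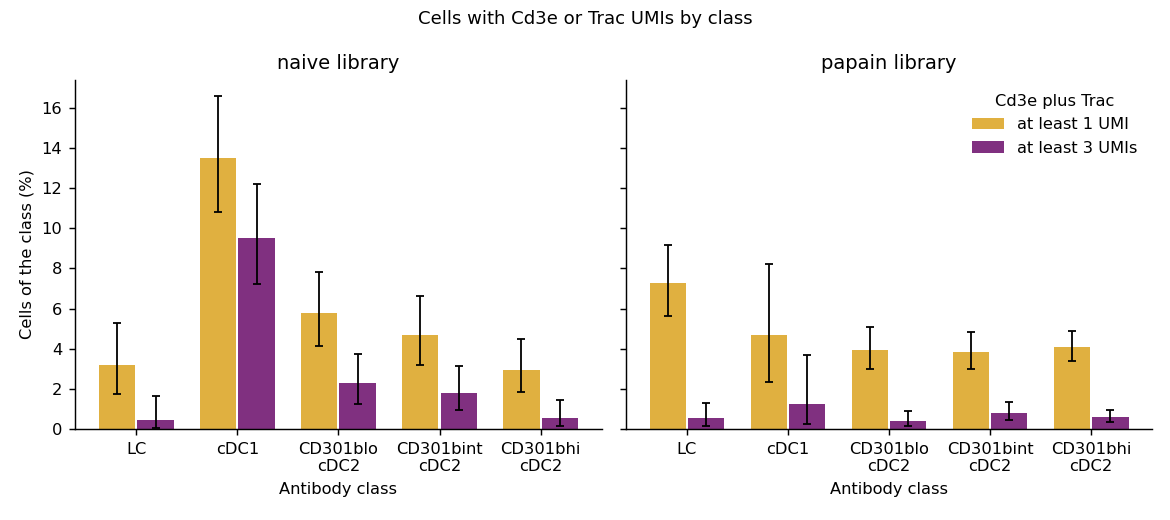
Share of classified cells (percent, vertical axis starting at 0) with at least 1, or at least 3, *Cd3e* plus *Trac* UMIs in each antibody class of the naive and papain libraries; error bars are 95% Clopper-Pearson intervals. The naive cDC1 class stands at 13.5% and 9.52%, above every other class.

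The label treats a droplet with 1 molecule and a droplet with many alike, and the members were of both kinds. In the naive library 87 members (47.8%) held exactly 1 *Cd3e* or *Trac* UMI, 7 held 2, and 88 (48.4%) held 3 or more, up to 22. In the papain library 248 (77.0%) held 1, 28 held 2 and 46 (14.3%) held 3 or more, up to 18. The droplets with 3 or more held 87.4% of the members' *Cd3e* plus *Trac* UMIs in the naive library and 46.9% in the papain one. As a share of classified cells they were 2.89% of the naive library (2.33 to 3.55%) and 0.630% of the papain library (0.461 to 0.839%).

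By class, the droplets with 3 or more UMIs were concentrated in the naive cDC1s. They were 55 of 578 naive cDC1s (9.52%, 7.25 to 12.2%), 15 of 658 CD301blo (2.28%), 12 of 659 CD301bint (1.82%) and 4 of 707 CD301bhi cDC2s (0.566%), and 2 of 440 LCs. In the papain library they were 5 of 881 LCs (0.568%), 3 of 235 cDC1s (1.28%), and 6, 15 and 17 cells of the CD301blo, CD301bint and CD301bhi cDC2s (0.408%, 0.821% and 0.588%). The high share of papain LCs therefore came from single molecules, since 54 of their 64 members held exactly 1. The high share of naive cDC1s came from droplets with many.

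In droplets with 1 UMI the molecule was mostly *Trac*. It was *Trac* in 68 of 87 naive members (78.2%, 68.0 to 86.3%) and in 229 of 248 papain members (92.3%, 88.3 to 95.3%). In droplets with 3 or more UMIs the 2 genes were more even, with *Trac* making up 49.4% of the UMIs (45.6 to 53.1%) in the naive library and 61.7% (55.6 to 67.5%) in the papain one. Droplets with 3 or more UMIs that had expression values but no antibody data gave 52.4% (49.8 to 55.1%) and 60.2% (57.5 to 62.9%). The intervals of the droplets with 1 and with 3 or more UMIs did not meet in either library. Those of the classified and the unclassified droplets with 3 or more UMIs overlapped in both. The UMIs of 1 droplet are not independent, so the intervals for 3 or more UMIs are too narrow. By class, the papain share with 3 or more UMIs ran from 25.0% in cDC1s to 73.2% in CD301bint cDC2s.

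The rest of the T cell receptor complex separated the members further. *Cd3d* and *Cd3g* encode the other CD3 chains, and *Trbc1* and *Trbc2* the 2 constant regions of the beta chain, whose sequences are nearly identical, so that the split between those 2 genes is uncertain. None of the 4 enters the rule. At least 1 UMI of them was found in 86 of 88 naive droplets with 3 or more *Cd3e* plus *Trac* UMIs (97.7%, 92.0 to 99.7%) and in 42 of 46 papain ones (91.3%, 79.2 to 97.6%). In droplets with 1 UMI the same was true of 6 of 87 naive members (6.90%, 2.57 to 14.4%) and 16 of 248 papain members (6.45%, 3.73 to 10.3%). The droplets with none, just outside the rule, gave 191 of 2860 (6.68%, 5.79 to 7.66%) and 265 of 6984 (3.79%, 3.36 to 4.27%). Thinned to 8392 UMIs, the shares for 1 UMI and for none were 4.54% and 4.06% in the naive library and 2.88% and 2.05% in the papain one. The unthinned intervals for 1 UMI and for none overlapped in both libraries, in the papain one only between 3.73 and 4.27%. Such overlap does not show that the shares were alike.

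Where they were present in droplets with 3 or more UMIs, these genes were abundant. The median summed count of the 4 genes was 23.5 UMIs in the naive (quartiles 17.8 and 33.3, highest 49) and 19 in the papain droplets (10.3 and 25, highest 67). Droplets without antibody data and with 3 or more UMIs had medians of 24 and 21. Among the droplets with none or 1 UMI the median was 0 in both libraries. A few droplets crossed this line, since 10 naive and 1 papain cell without the label held 5 or more of these UMIs, and so did 2 naive and 4 papain members with 1 UMI.

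**Figure D2:**
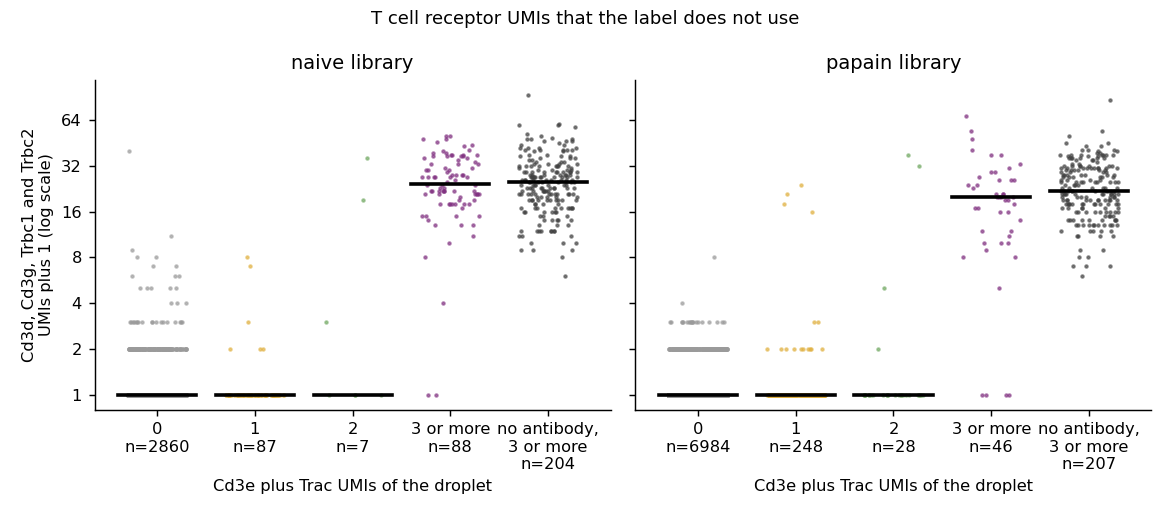
Summed UMIs of *Cd3d*, *Cd3g*, *Trbc1* and *Trbc2* per droplet, plus 1, on a log axis, by the number of *Cd3e* plus *Trac* UMIs (0, 1, 2, 3 or more), each point 1 droplet of the naive or papain library. Droplets with 0 or 1 lie at the bottom with a median of 0, and those with 3 or more have medians of 23.5 and 19.

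In naive cDC1s the mix of these 4 genes differed slightly from that in cDC2s. *Cd3g* made up 27.6% of their UMIs (25.4 to 30.0%) in cDC1-class droplets with 3 or more UMIs, against 20.7% (17.7 to 23.9%) in cDC2-class and 20.7% (19.6 to 21.8%) in unclassified droplets. *Trbc1* made up 17.3% (15.4 to 19.3%), 26.2% (23.0 to 29.6%) and 19.7% (18.6 to 20.8%) in the same order. A few cells can dominate such shares, and the UMIs of 1 droplet are not independent.

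Members held somewhat more RNA than other cells of their class. Averaged over classes with the members' class weights, their median UMI count was 1.13 times that of cells without the label in the naive library and 1.14 times in the papain one, although naive CD301bhi members stood at 0.91. For droplets with 1 UMI the ratio was 1.09 in both. It was 1.26 and 1.41 for droplets with 3 or more. A deeper cell has more chances to yield any molecule, and the share of papain cells with exactly 1 UMI went from 2.47% in the shallowest 20% of cells (36 of 1459) to 4.92% in the deepest 20% (72 of 1462). In the naive library it went from 1.81% (11 of 609) to 4.10% (25 of 610). The share with 3 or more was also highest among the deepest cells, at 7.05% in the naive library and 1.71% in the papain one. In the naive library the shallowest cells came second at 3.28%, so the naive droplets with 3 or more lay at both ends of the depth range.

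The number of genes detected was compared at equal depth. Thinned to 8392 UMIs, naive cDC1-class droplets with 3 or more UMIs showed a median of 2556 genes against 2244 in those with none. The naive cDC2 classes showed 2555 against 2318, and the papain cDC2 classes 2623 against 2439. Droplets with 1 UMI had 2349 against 2308 in the naive library and 2485 against 2442 in the papain one, over all classes. Doublets were not called on these files, and the parts played by binding in the node, by chance pairing and by cell size in these differences were not tested.

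All of these droplets carry a DC class, and the DC label was checked against MHC class II mRNA, summed over *Cd74* (the invariant chain), *H2-Aa*, *H2-Ab1* and *H2-Eb1* as CPM (counts scaled to 1000000 per cell or per sum of cells). In naive cDC1s the median was 3909 CPM in cells with none, 5258 in those with 1 UMI and 638 in those with 3 or more. In naive cDC2s it was 6260, 6147 and 2246 in the same order, and in papain cDC2s 3832, 4388 and 2656. The unclassified droplets with 3 or more T cell receptor UMIs had 143 CPM in the naive library and 109 in the papain one.

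The droplets were then split at 10% of the median of the cells with none in their own class. Under it lay 24 of the 55 naive cDC1-class droplets with 3 or more UMIs (43.6%, 30.3 to 57.7%), against 5 of 500 with none (1.00%). The same was true of 5 of 31 naive cDC2-class droplets (16.1%, 5.45 to 33.7%) against 42 of 1934 (2.17%), and of 3 of 38 papain cDC2-class droplets (7.89%, 1.66 to 21.4%) against 190 of 5943 (3.20%). With 1 UMI, 0 of 87 naive members and 9 of 248 papain members (3.63%) were under it, against 1.78% and 2.91% of cells with none. The split was set after values were seen, and 17 of the 55 naive cDC1-class droplets lay between 5% and 20% of the class median, so it does not cut between separate populations.

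**Figure D3:**
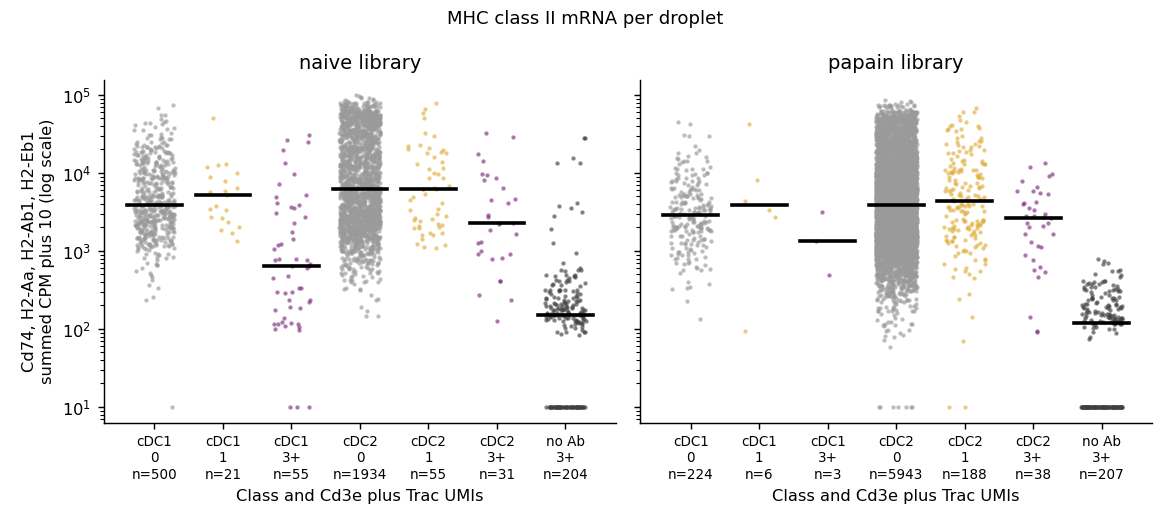
Summed CPM of *Cd74*, *H2-Aa*, *H2-Ab1* and *H2-Eb1* per droplet, plus 10, on a log axis, by the number of *Cd3e* plus *Trac* UMIs, each point 1 droplet of a class group and library and each black line a median (LCs not drawn, no Ab meaning without antibody data). Naive cDC1-class droplets with 3 or more UMIs spread down to the level of unclassified droplets, with a median of 638 CPM against 3909 in those with none.

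The 24 low droplets of the naive cDC1 class, chosen for little MHC class II mRNA, were mostly without another DC gene that the split did not use. *Fscn1*, the actin-bundling protein of mature DCs, was found in 4 of the 24, against 496 of 500 naive cDC1s with none. *Thy1*, a surface protein of T cells, was found in 23 of the 24. Their median depth was 9906 UMIs and their median total of antibody counts 3012.5, against 15648.5 and 10843 in the cDC1s with none. Their tags of MHC class II protein had a median count of 2081 against 8911. They are called here only by what they carry, T cell receptor transcripts with little MHC class II mRNA. *Cst3* (cystatin C), which is abundant in DCs, was still detected in 22 of them, against 46.1% (94 of 204) of the naive unclassified droplets with 3 or more UMIs, and what free RNA contributed to it was not tested.

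The other 31 naive cDC1-class droplets with 3 or more UMIs carried both programmes. *Fscn1* was found in 30 of them, and *Cst3* and *Ccr7*, the chemokine receptor of migratory DCs and of naive T cells, in all 31. *Thy1* was found in 24. Their median depth was 23020 UMIs, and their MHC class II antibody count of 8785 lay near the 8911 of cDC1s with none. Their XCR1 protein, however, had a low median value of 0.36, near the 0.38 of the 24 low droplets and under the 1.31 of cDC1s with none. It was more spread, with quartiles of 0.23 and 1.06 against 0.30 and 0.43 in the 24. The median XCR1 tag counts were 47 and 17.

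The antibody values used here are natural logs of a tag's count over the geometric mean of all tags in the cell, so a higher value of 1 tag lowers the others. The classes were drawn on these same values, and differences within a class are given as descriptions. XCR1 in naive cDC1-class droplets with 3 or more UMIs had a median of 0.38 (quartiles 0.28 and 0.52), against 1.31 (1.01 and 1.63) with none and 1.39 with 1 UMI. CD172a, which cDC1s lack, stood at 1.02 (0.19 and 1.17) against 0.12 (0.07 and 0.19). CD103 stood at 1.81 (1.47 and 2.36) against 1.26 (0.93 and 1.54). The quartile ranges of XCR1 with 3 or more and with none did not meet, and the CD103 median lay above the upper quartile of cDC1s with none.

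In cDC2-class droplets with 3 or more UMIs, CD8a and, in the naive library, CD103 stood above the cells with none, though not in every class. In naive CD301blo cDC2s with 3 or more UMIs its median was 2.02 (n = 15, quartiles 0.97 and 2.47) against 0.66 (0.34 and 1.38) with none. In naive CD301bint cDC2s CD8a did not differ in its median, 0.56 in both, while CD103 stood at 1.08 against 0.18. Over all naive cDC2-class droplets CD103 stood at 0.64 against 0.16. In papain CD301blo cDC2s CD8a was 2.60 (n = 6) against 0.40, and in papain CD301bint cDC2s 1.83 (n = 15) against 0.35. Papain CD301bhi cDC2s with 3 or more UMIs were close to those with none, at 0.40 against 0.27 (n = 17). CD172a in papain CD301blo droplets with 3 or more UMIs was 0.74 against 1.76.

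**Figure D4:**
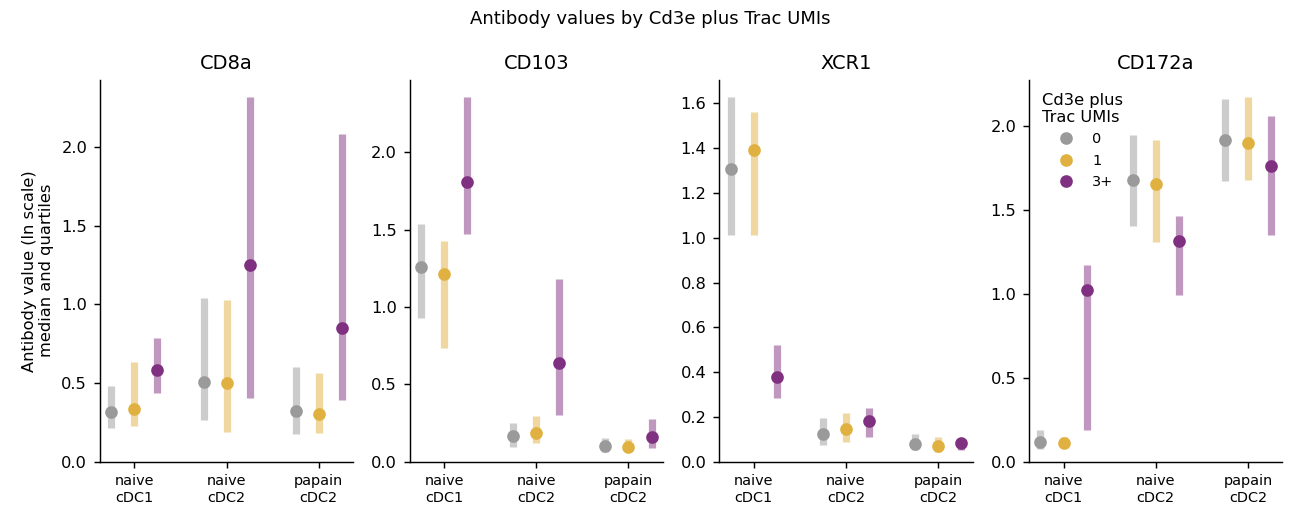
Antibody value (natural log scale) of CD8a, CD103, XCR1 and CD172a by the number of *Cd3e* plus *Trac* UMIs in naive cDC1, naive cDC2 and papain cDC2 classes; points are medians and bars span the quartiles over droplets. XCR1 in naive cDC1s goes from 1.31 with none to 0.38 with 3 or more, and 1 UMI stays near none in each panel.

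In its medians the CD8a protein followed the coreceptor mRNA. *Cd8b1* encodes the CD8 beta chain, which T cells make and DCs do not. Among naive cDC2-class droplets with 3 or more UMIs the CD8a value had a median of 2.51 in the 13 with a *Cd8b1* UMI (lowest 0.25) and of 0.51 in the 18 without (highest 2.13). In the papain cDC2 classes it was 2.29 (lowest 1.64, n = 14) and 0.40 (highest 1.89, n = 24), and the interquartile ranges did not meet in either library. *Cd4* and *Cd8b1* were found together in 2 of the 31 naive and 0 of the 38 papain droplets. *Cd4* without *Cd8b1* was found in 7 and 14 of them. In the cDC1 class, 10 of 55 naive droplets held *Cd8b1* and another 10 held *Cd4*, and 35 held neither.

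Members with 1 UMI had the surface of their class. XCR1 in naive cDC1s was 1.39 against 1.31 with none, CD103 1.22 against 1.26 and CD172a 0.11 against 0.12. CD8a in cDC2s was 0.50 against 0.51 in the naive library and 0.31 against 0.32 in the papain one. The widest gap for a 1 UMI group of over 10 cells was CD11c in naive CD301blo cDC2s, at 1.66 against 2.39 (n = 22).

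The T cell transcripts in droplets with 3 or more UMIs were not of 1 kind across classes, and this was examined with genes that mark naive, resident and type 17 T cells. In naive cDC1-class droplets, *Cxcr6*, a chemokine receptor of tissue-resident and effector T cells, was found in 37 of 55 (67.3%, 53.3 to 79.3%). The shares of droplets with *Cxcr6* were 32.3% (16.7 to 51.4%) in naive cDC2-class, 5.26% (0.644 to 17.7%) in papain cDC2-class and 10.3% (6.49 to 15.3%) in naive unclassified droplets with 3 or more UMIs. Thinned to 8392 UMIs they were 67.0%, 27.6% and 2.87% in the 3 classified groups. Its level ran in the same order, at 299 CPM, 117 CPM and 2.36 CPM. Within the naive cDC1 class *Cxcr6* was found in 21 of the 24 droplets low in MHC class II mRNA (625 CPM) and in 16 of the other 31 (180 CPM). The cells with no T cell transcript in naive cDC1s held 1.00 CPM.

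*Lef1*, a transcription factor of naive T cells, ran the other way. It was found in 23.6% (13.2 to 37.0%) of naive cDC1-class, 51.6% (33.1 to 69.8%) of naive cDC2-class and 71.1% (54.1 to 84.6%) of papain cDC2-class droplets with 3 or more UMIs, with levels of 34.2, 46.7 and 121 CPM. Thinned, the *Lef1* shares were 15.2%, 30.6% and 54.5%. *Ms4a4b*, which encodes a membrane protein abundant in naive T cells, was found in 23.6%, 64.5% and 84.2% in the same order. The naive cDC1-class droplets were thus lowest, and the papain cDC2-class droplets highest, for both genes.

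Among the cDC1-class and cDC2-class droplets with 3 or more UMIs compared here, genes of type 17 and gamma-delta T cells were found mostly in naive ones. *Tcrg-C1*, a constant region of the T cell receptor gamma chain, was found in 21 of 55 naive cDC1-class droplets with 3 or more UMIs (38.2%, 25.4 to 52.3%), in 4 of 31 naive cDC2-class droplets (12.9%) and in 0 of 38 papain cDC2-class droplets, which allows up to 9.25%. *Blk*, a kinase of B cells and of T cells that make IL-17, was found in 54.5% (40.6 to 68.0%), 19.4% and 0%. *Il23r*, the receptor of type 17 cells for IL-23, was found in 34.5%, 19.4% and 2.63%. *Trdc*, the constant region of the delta chain, was found in 5.45% of the naive cDC1-class droplets. All of these droplets held *Cd3e* or *Trac* by the rule that chose them. *Tcrg-C1* alone does not say which receptor a cell used, and this was not tested.

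Cytokine and ligand transcripts lay in few droplets. Of the 62 *Il17a* UMIs in classified naive cells, 61 were in 10 members, 24 of them in 1 cDC1-class droplet, and the papain library had 0. In the naive cDC1 class *Il17a* stood at 188 CPM in the 24 droplets low in MHC class II mRNA and at 11 CPM in the other 31. Of 193 *Il22* UMIs, 170 were in 7 naive members, with 64 in 1 CD301bint droplet, and the classified papain cells held 1. *Cd40lg*, the ligand by which helper T cells activate DCs through CD40, was found in classified naive cells only in members, 78 of 78 UMIs in 32 droplets, all with 3 or more *Cd3e* plus *Trac* UMIs. Of the 15 *Cd40lg* UMIs in classified papain cells, 14 were in 7 members. *Foxp3*, the regulatory T cell factor, was found in 0 of 55 naive cDC1-class, 3 of 31 naive cDC2-class and 3 of 38 papain cDC2-class droplets.

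**Figure D5:**
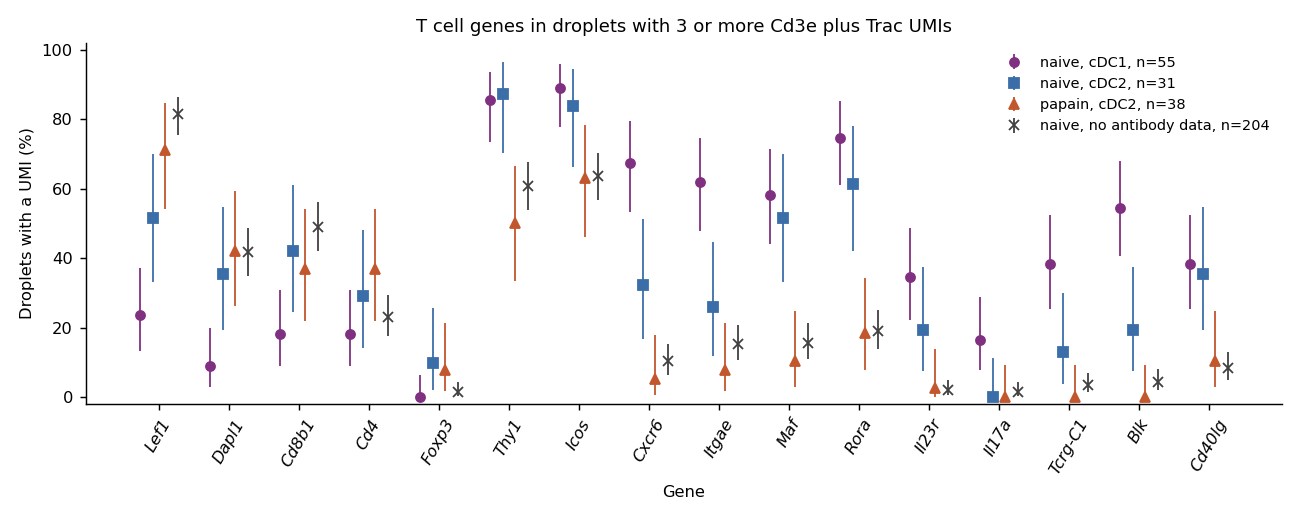
Percent of droplets with at least 1 UMI of each of 16 T cell genes, among droplets with 3 or more *Cd3e* plus *Trac* UMIs in the naive cDC1 class (n = 55), naive cDC2 classes (n = 31), papain cDC2 classes (n = 38) and naive droplets without antibody data (n = 204). *Cxcr6* is found in 67.3% of the naive cDC1-class droplets and 5.26% of the papain cDC2-class droplets, and *Lef1* in 23.6% and 71.1%.

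The authors' own expression clusters hold cDC2-class cells alone, so LCs and the 55 naive cDC1-class droplets with 3 or more UMIs are in none of them. Of the 31 naive cDC2-class droplets with 3 or more UMIs, 25 were in 1 small cluster of 50 cells (a share of the cluster with an interval of 35.5 to 64.5%), while the other 6 naive clusters held 0 to 2 each. The 38 papain cDC2-class droplets with 3 or more were spread, with 15 of 560 cells (2.68%) in cluster 5 and 8 of 216 (3.70%) in cluster 9 and 0 to 5 in each of the others. Members with 1 UMI were found in every cluster, in 1.63 to 4.0% of cells per naive cluster and 1.58 to 5.18% per papain cluster. The clusters were drawn on the same transcripts, so these counts describe them and test nothing.

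Across all genes, summed levels of members and of cells with none were set side by side, with the cells without the label weighted to the members' class mix. A gene was counted where 1 group reached 50 CPM and the ratio was 2-fold or more, on log2(CPM + 1). In the naive library 146 of 2733 genes were higher in members by this measure (5.34%) and 7 were lower (0.256%). In the papain library 7 of 2643 were higher (0.265%) and none was lower (0%), and the count of 0 has no test behind it. The median over all genes was 0.04 and -0.01 on the log2 scale.

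The 4 receptor genes that did not enter the rule were among the 10 highest ratios in naive members, over genes that reached 50 CPM. *Cd3g* stood at 177 CPM in members and 0.73 in cells with none, a log2 ratio of 6.68 (6.31 to 7.0), and *Trbc2* at 235 and 3.79 CPM, a log2 ratio of 5.62 (5.36 to 5.88). *Cd3d* (5.75) and *Trbc1* (5.35) were close to them. In the papain library *Trbc2* stood at 60.9 and 1.01 CPM (log2 ratio 4.95, 4.74 to 5.15), *Trbc1* at 4.92, *Cd3d* at 4.47 and *Cd3g* at 4.45. The median log2 ratio over this list (5 of its 7 genes are outside the rule) was 5.62 in the naive library and 4.47 in the papain one, against the medians of 0.04 and -0.01 over all genes. The genes of this list that reached 50 CPM did so only in the members. A count of them past 2-fold was therefore fixed by that floor.

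The genes of T cell signalling and identity lay on the same side. All 21 listed genes were higher in members of both libraries, by any amount, with a median log2 ratio of 3.64 in the naive library and 3.46 in the papain one. Of those that reached 50 CPM, 9 of 9 and 1 of 2 were past 2-fold. That count is partly fixed by the floor, since genes such as *Thy1* (naive) and *Ms4a4b* (papain) reached it only in members. *Thy1* stood at 121 CPM in naive members against 1.15 (log2 ratio 5.83, 5.51 to 6.11) and at 8.29 against 0.16 in papain members (3.01). *Lck*, the kinase that starts signalling from the receptor, stood at 4.64 and 3.54.

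The genes named by size in the papain library were, after *Trac* itself, also T cell genes at the top. *Ms4a4b* stood at 50.8 CPM in papain members and 0.30 in cells with none (log2 ratio 5.31, 5.11 to 5.50) and at 74.5 and 4.43 CPM in the naive library (3.80). *Ets1*, a transcription factor of lymphocytes, had ratios of 3.84 in papain and 4.45 in naive members. *Satb1*, a chromatin organizer of T cells, had 3.68 and 3.87, and *Emb*, which encodes embigin, 2.84 and 3.98. *Shisa5* (1.05), *Klf13* (0.97), *Rac2* (0.91) and *Gm8995* (0.88) closed the list of 10, with *Gm8995* uncertain as a gene model. They stood at 2.44, 1.90, 2.43 and 1.32 in the naive library.

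At the other end the ratios were small. *Cd81*, a tetraspanin, had the lowest in papain members at -0.48 (-0.63 to -0.33) and stood at -0.93 in naive members. *Plcl2* (-0.39), *Hspa1b* (-0.36) and *A130012E19Rik* (-0.34) were among those that followed in the papain library, with *Nlrc5*, *Gbp4*, *Ccrl2* and *Lima1* between -0.34 and -0.33 and *Lgmn*, a protease of antigen processing, at -0.32. None reached 2-fold in the papain library.

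MHC class II genes were lower in naive members and near the others in papain members. The list had a median log2 ratio of -0.68 in the naive library and -0.11 in the papain one, with no gene of it past 2-fold. *Cd74* stood at 4398 CPM in naive members and 6869 in cells with none (log2 ratio -0.64, -0.67 to -0.62) and at 4054 and 4228 CPM in the papain library (-0.06). *H2-Ab1* had -0.75 and -0.23. The migratory DC programme had medians of -0.41 and -0.11, and *Fscn1* ratios of -0.57 and -0.14. *Ccr7* differed by -0.11 and -0.05.

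In naive members the difference in MHC class II mRNA was larger among the droplets with many T cell molecules. In naive cDC2-class droplets with 3 or more UMIs all 8 genes of the list were past 2-fold lower, with a median of -1.76, where 55 of 2896 genes (1.9%) were lower. *H2-Ab1* stood at 640 CPM against 2645 (log2 ratio -2.04, -2.18 to -1.91), and *Cd74* at 3938 against 9566 (-1.28). In papain cDC2-class droplets with 3 or more UMIs 3 of the 4 genes that reached 50 CPM were past 2-fold lower, with a list median of -0.66, where 27 of 2935 genes (0.92%) were lower. *H2-Ab1* stood at 151 against 556 CPM (-1.88) and *H2-Aa* at 635 against 1468 CPM (-1.21). In naive cDC1-class droplets the list median was -0.80 and none of the 5 that reached 50 CPM was past 2-fold, where 257 of 3021 genes (8.51%) were lower. *Cst3* in those stood at 2027 against 6570 CPM (-1.70). These ratios are of sums, in which deep droplets weigh most. The median droplet of this class held 638 CPM of the 4 MHC class II genes summed above, against 3909 with none, a wider gap than in naive cDC2s.

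CPM is a share of a droplet's total, so the molecules themselves were counted as well. Per droplet the MHC class II UMIs had a median of 45 in naive cDC2-class droplets with 3 or more UMIs against 91 with none, at median depths of 22203 and 14173.5 UMIs. In naive cDC1s they had a median of 11 against 61, at 16965 and 15648.5 UMIs. In papain cDC2s they had a median of 53.5 against 59, at 21350.5 and 14708 UMIs. The naive droplets thus held fewer molecules as well as a smaller share, and the papain ones nearly as many molecules.

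Genes higher in the droplets with 3 or more UMIs were mostly shared between cDC2 classes of the 2 libraries, and the lower genes were shared to a smaller extent. Higher in naive cDC2-class droplets were 209 of 2896 genes (7.22%) and in papain ones 150 of 2935 (5.11%), and in naive cDC1-class droplets 556 of 3021 (18.4%). Among the 2574 genes compared in both, 105 were higher in naive and in papain cDC2-class droplets, 76.6% of the 137 naive and 82.7% of the 127 papain genes. Leading higher genes, such as *Lef1* at 121 against 0.28 CPM in papain cDC2s, reached 50 CPM only in members. The counts of higher genes are therefore partly fixed by that floor. Of the lower genes 7 were shared, 21.2% of the 33 naive and 30.4% of the 23 papain genes. Naive cDC1-class and cDC2-class droplets had 161 in common, 38.3% of the 420 and 94.7% of the 170. The lists share no cells.

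Beyond the lists of the receptor complex and of T cell signalling and identity, the genes with the largest ratios differed between the classes. In naive cDC1-class droplets they were *Cxcr6* (log2 ratio 7.23), *Ikzf3* (7.07), *Actn2* (6.89) and *Gata3* (6.13), with *Icos* at 632 against 9.85 CPM (5.87) and *Ramp3* at 532 against 8.36 (5.83). *Ikzf3* and *Gata3* encode transcription factors of lymphocytes and *Icos* a costimulatory receptor of activated T cells. In papain cDC2-class droplets they were *Lef1* (6.58), *Ablim1* (6.54), *C230085N15Rik* (6.11), *Ets1* (6.06) and *Cd8b1* (6.06). *Ctla4*, an inhibitory receptor, stood at 5.68 there, and at 4.79 without the 1 droplet that held 22 of its 45 UMIs. In naive cDC2-class droplets *Il22* (5.66) led, which came mostly from the 1 droplet with 64 UMIs, followed by *Ipcef1* (5.45) and *Gm8369* (5.39).

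The lowest genes differed too. In naive cDC2-class droplets with 3 or more UMIs *Lyz2*, lysozyme of myeloid cells, stood at 35.0 against 683 CPM (-4.25), *Retnla* at 4.38 against 119 (-4.48) and *Ccl6* at 4.38 against 69.1 (-3.70). In naive cDC1-class droplets *Ccl5*, a chemokine, stood at 8189 against 33217 CPM (-2.02), and *Epsti1*, an interferon-induced gene, at 1817 against 8138 (-2.16).

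Members with 1 UMI had few genes past 2-fold. In the naive library 14 of 2589 genes were higher (0.541%), of which 0 remained when the droplet with the most UMIs of that gene was left out, and 6 were lower (0.232%). Among the papain members 1 of 2613 was higher (0.0383%) and none lower (0%). The 1 gene was *Il12b*, a subunit of IL-12, with a log2 ratio of 1.01 that was 0.14 without 1 cDC1 droplet of 207 UMIs. The list of receptor genes outside the rule had a median log2 ratio of -0.59 in naive and 1.45 in papain members with 1 UMI, at levels of at most 7.95 CPM. In papain members with 1 UMI all 21 genes of T cell signalling and identity had ratios above 0 (median 0.81, against 0.00 over all genes), as had 7 of 8 genes of naive and recirculating T cells (median 0.94), at low levels with 0 of these genes past 2-fold at 50 CPM. In naive members with 1 UMI 17 of the 21 were above 0 (median 0.40, against 0.01). The 2 B cell genes that reached 50 CPM in the naive droplets were past 2-fold, *Igkc* at 3.13 and *Ighm* at 1.30, and stood at 0.62 and -0.17 without the droplet richest in each. The MHC class II list stood at -0.32 and 0.02.

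Among all members, no gene of the list of T cell costimulation by DCs was past 2-fold at 50 CPM in either library. *Cd40* stood at 230 CPM in naive members against 324 (log2 ratio -0.49) and 627 against 723 in the papain library (-0.21). *Cd86* stood at -0.35 and -0.22, and *Cd80* at -0.06 in both. Of the cytokine list, 5 naive and 4 papain genes reached 50 CPM. In naive members *Tgfb1*, which T cells also make, was past 2-fold higher (log2 ratio 1.09), while *Il12b* (-0.94), *Il1b* (-0.85) and *Ebi3*, a subunit of IL-27 (-0.75), were on the other side. In naive cDC1-class droplets with 3 or more UMIs *Tgfb1* stood at 126 against 17.5 CPM (2.78), and *Il12b* (-1.59), *Ebi3* (-1.22) and *Il15* (-1.04) were past 2-fold lower. In papain members none was past 2-fold. *Il2* stood at 9.08 CPM in papain members against 4.17 (0.96, 0.59 to 1.32), a ratio that became 0.39 when the cDC1-class droplet with the most *Il2* UMIs was left out, and at 3.07 against 3.53 in naive members (-0.16, -0.91 to 0.59). In naive members *Cxcl16*, the ligand of CXCR6, stood at -0.27.

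The lists of markers of other cells had medians closer to 0 than the lists of the receptor complex and of T cell signalling and identity. The B cell list had median log2 ratios of 0.08 in naive and 0.38 in papain members with 0 genes reaching 50 CPM. The 13 genes of the NK and cytotoxic list ran from -2.35 to 3.02 in naive members (median 0.40), and the 1 that reached 50 CPM was not past 2-fold. The macrophage, monocyte and neutrophil list had medians of -0.74 and -0.18. The cell cycle list stood at 0.20 and -0.04, and of its 10 genes none of the 3 naive and 4 papain ones that reached 50 CPM was past 2-fold, the highest naive ratio below that level being 1.24.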

How the data were processed

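The members and the gene lists were chosen with earlier results of these data known. Per the labels, live sorted cells were loaded on a 10x Chromium 3' v3 kit, and the submitters' processing notes name Cell Ranger 3.0.1, Partek and the mm10 build. The authors deposited, per cell, log2 expression values (CPM plus 1), from which the UMI counts were recovered as whole numbers for 100.0% of the values checked (tolerance 0.02 UMI, counts up to 50). The deposited antibody values are the natural log of 1 plus each count over its geometric mean, with total antibody counts deposited beside them. The deposited per-cell score columns (a mitochondrial percent and a total) were computed on log values and were not used for depth. The authors' class and conjugation labels were taken as deposited, and the conjugation label matched the *Cd3e* and *Trac* UMIs in all 3471 naive and 7596 papain cells.

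Doublets were not called. Total UMIs per cell ranged from 3637 to 57378 in the naive and from 2682 to 57150 in the papain library. UMIs were summed over members and over cells without the label of the same class, weighted by the members' UMIs, and compared as log2 of CPM plus 1. Limits were exact Poisson for the members and approximate gamma for the weighted sum, combined on the log scale. Cells were thinned to 8392 UMIs, the 10th percentile of depth. With 1 library per condition no test was run. Named genes were those of the rule, those of 22 lists (201 of 222 genes were found in the files), and the 10 highest and 10 lowest papain log2 ratios among genes with 50 CPM and the same direction in both libraries. Some genes of these lists are not reported here. The tables of droplets with 3 or more UMIs, the genes leading them and the T cell state genes were chosen after values were seen. The scripts were tested on simulated data. Python 3.11.15, numpy 2.4.6, scipy 1.17.1 and pandas 2.3.3 were used.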

Additional observations from a re-analysis of the deposited data

Results flagged for a closer look

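*Il12b* stood on opposite sides of the cells without the label in the 2 libraries, with a log2 ratio of members over none of -0.94 in the naive library and 0.66 in the papain one. The difference between the libraries was not tested, and it turned on 1 papain cDC1 droplet with 207 *Il12b* UMIs. Without the droplet with the most *Il12b* UMIs in each library, the ratios were -1.07 and -0.12. With 1 library per condition, no group was large enough for samples to be checked against each other.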

How the results depend on the processing

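The share of members was 3.12% naive and 1.01% papain at 2 or more UMIs, 2.89% and 0.630% at 3 or more, 4.63% and 2.60% when thinned, 3.55% and 0.821% by *Cd3e* only, and, naive, 5.16% by *Trac* only and 4.22% without cDC1s. The depth ratio was 1.26 naive and 1.38 papain at 2 or more UMIs, 1.26 and 1.41 at 3 or more, 1.16 naive without weighting and 1.13 papain without cDC1s. The median log2 ratio of the T cell receptor list was 6.38 naive and 6.33 papain at 2 or more UMIs, 6.41 and 6.92 at 3 or more, -0.59 and 1.45 at exactly 1, 3.76 and 2.21 with 10 CPM added, and 5.10 naive without cDC1s. The MHC class II list stood at -1.23 and -0.51 at 2 or more UMIs, -1.24 and -0.63 at 3 or more, -0.32 and 0.0225 at exactly 1, -0.80 and -0.25 without weighting, and, naive, at -0.91 without the deepest 5% of cells, -0.58 without droplets low in MHC class II mRNA and -0.85 without cDC1s. Genes higher by 2-fold were 546 naive and 75 papain with a floor of 10 CPM, 71 and 0 at 100 CPM, 1105 and 258 without a floor, 318 and 75 at 2 or more UMIs, 336 and 140 at 3 or more, 14 and 1 at exactly 1, and 61 naive without cDC1s. Genes lower were 47 and 2 at 10 CPM, 213 and 17 without a floor, 98 and 5 at 2 or more UMIs, 121 and 24 at 3 or more, and, naive, 2 at 100 CPM, 4 with 10 CPM added and 14 without cDC1s. At exactly 1 UMI naive *Ets1* stood at -0.35 and *Gm8995* at -0.0671. The alternatives at 3 or more UMIs, without cDC1s, without droplets low in MHC class II mRNA and without the top droplet of a gene were chosen after seeing the data. Of the 94 alternatives to the main values, 34 left the value in place, 58 moved it and 2 reversed it. In place meant inside the counting interval, within 1.5-fold for gene counts, or equal to 2 decimals for depth ratios. Of 504 for named genes, 237 left the value in place, 265 moved it and 2 reversed it. Of 60 for class shares, 25 left the value in place and 35 moved it. The causes were not tested beyond what each alternative itself leaves out. No paired analysis was possible because each condition has 1 library.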

Other observations

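The T cell transcripts of the papain cDC1 class rested on 3 droplets with 3 or more UMIs. *Cd3e* made up most of their rule UMIs, with *Trac* at 4 of 16 (25.0%, 7.27 to 52.4%), and 1 of them held 21 *Il2* UMIs.

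Among naive cDC1s without a *Cd3e* or *Trac* UMI, 1 droplet held 39 UMIs of *Cd3d*, *Cd3g*, *Trbc1* and *Trbc2*, so that the label missed at least this T cell receptor-bearing droplet. In the 2 UMI group, 1 naive cDC1-class member held 35 of these UMIs and the other 0.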
